A study of Mus musculus with 4 samples.

Results

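The 8 genes described here act in antigen receptor recombination or mark thymocytes that carry both CD4 and CD8, called double-positive cells, before selection. They are Rag1, Rag2, Dntt, Ptcra, Arpp21, Slc6a19, Aqp11 and Cd1d1. The choice was a list of names, known as genes that decline after selection, and the rule uses no value from these libraries, although earlier results of these data were known when the list was made. All 8 were found among the 35275 genes of the count table, all 8 were among the 12490 measured genes (those with 2 CPM or more in 1 or more libraries, CPM being the count relative to the library total), and all 8 reached 10 CPM. RNA was sequenced from thymocytes of C57BL/6 mice aged 6 to 8 weeks, untreated, stained for CD69 and the T cell receptor β chain and sorted into a TCRβint CD69hi population, group 2, and a TCRβhi CD69hi population, group 3. Each population came from Uba3F/F mice, whose genotype label is wild type and which are called WT here, and from Uba3ΔT mice, whose genotype label is Uba3-/- and which are called KO. Uba3 makes a subunit of the enzyme that charges NEDD8 for its transfer to cullins and other proteins. The controls carry the floxed allele, the Cre line and the number of mice behind each library are not given in the sources used here, and each of the 4 combinations was 1 library.

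T cell receptor genes are assembled from separate gene segments. The RAG1 and RAG2 proteins cut the DNA beside the segments, terminal transferase adds nucleotides to the cut ends, and the general end joining machinery seals them. The β chain is assembled first and is displayed with the pre-T cell receptor α chain, the product of Ptcra; double-positive thymocytes then switch the recombinase on again to assemble the α chain. Positive selection ends recombination, and the cells raise their surface receptor and CD69 as they start to mature.

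The libraries held 8043077 to 10299863 counts, so that 1 count was worth about 0.1 CPM. The level of Uba3 did not match the genotype labels. It gave 453 counts in WT group 2 and 356 in WT group 3, against 647 and 856 in the libraries labelled KO, a fitted log2 difference of 0.90 ± 0.17 (SE; adjusted p = 2.65e-05, edgeR quasi-likelihood test). A gene-level count also takes reads from outside a deleted exon, and the deleted part of Uba3 is not given in the sources used here. Every direction between genotypes below is therefore that of the libraries labelled KO over those labelled WT. In the cell type field the WT libraries are all group 2 and the KO libraries all group 3, whereas the titles and the series design cross the factors; the titles were followed. Ccr7, a chemokine receptor gained by maturing thymocytes, stood at 195 CPM in WT group 2, 592 in WT group 3, 160 in KO group 2 and 599 in KO group 3, the order that the titles give. Markers of T cells (Cd4, Cd8a, Cd8b1, Cd3e, Trac and Cd69) summed to between 8579 and 10778 CPM in every library.

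The stretch of 250 bases before the transcript start was read from RefSeq (GRCm38.p6, the assembly of mm10) for the genes that encode the recombinase and the pre-receptor, because these genes are controlled through E proteins, which bind E-box motifs. Each run is written 5′ to 3′ on the gene's own strand, and capitals mark every E-box, CANNTG, which reads the same pattern on both strands. The Ptcra stretch is chr17:46763713-46763962 (minus strand), that of Rag1 is chr2:101649533-101649782 (minus strand) and that of Rag2 is chr2:101624462-101624711 (plus strand).
Ptcra: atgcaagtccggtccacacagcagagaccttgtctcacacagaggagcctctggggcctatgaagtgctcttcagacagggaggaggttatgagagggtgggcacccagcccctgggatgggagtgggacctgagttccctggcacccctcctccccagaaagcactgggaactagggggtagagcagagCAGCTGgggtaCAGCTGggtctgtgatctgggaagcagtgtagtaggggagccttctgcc
Rag1: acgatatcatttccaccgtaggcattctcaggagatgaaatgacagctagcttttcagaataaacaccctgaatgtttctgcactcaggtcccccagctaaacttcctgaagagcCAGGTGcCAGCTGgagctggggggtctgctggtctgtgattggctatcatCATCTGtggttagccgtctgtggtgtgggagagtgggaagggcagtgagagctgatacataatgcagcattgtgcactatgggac
Rag2: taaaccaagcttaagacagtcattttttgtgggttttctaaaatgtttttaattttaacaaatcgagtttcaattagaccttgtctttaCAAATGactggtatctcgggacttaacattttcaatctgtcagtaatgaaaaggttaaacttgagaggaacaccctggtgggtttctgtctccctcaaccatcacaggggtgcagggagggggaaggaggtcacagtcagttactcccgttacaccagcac

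The table held such a stretch for 7 of the 8 genes. An E-box was present for 6 of these 7 genes and in 66.2% of the 32851 stretches of all genes. The form CAGCTG, searched after the sequences had been seen and a subset of CANNTG, was present for 3 of 7 genes (Ptcra, Rag1 and Arpp21) and in 13.0% of all stretches. Ptcra held it at 60 and at 49 bases before the start, and 1.26% of all stretches held it at least 2 times. The other motifs were searched on both strands. The RUNX motif TGTGGT was present for 2 of 7 genes (Rag1 and Arpp21) against 14.0%, and the RBPJ motif TGGGAA, of the Notch pathway, for 4 of 7 (Rag1, Ptcra, Slc6a19 and Aqp11) against 21.6%. Arpp21 has several listed starts, and a gene counts once if any of them holds the motif. The shares are of single stretches, so Arpp21 had more chances to be counted. Its listed start 1 held 1 E-box and 1 RUNX motif, and 0 of the form CAGCTG. The stretch of Slc6a19, chr13:73692637-73692886, lies inside the span of the gene given below. Which start these cells use was not tested.

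Per length, the 8 genes spanned a wide range. In the authors' RPKM, Dntt was the highest of the 8 with a mean over the 4 libraries of 801 and was above 98.96% to 99.46% of measured genes, depending on the library. Arpp21 followed at 296, Aqp11 at 240 and Cd1d1 at 154. The lower tier held Rag2 at 43.8, Ptcra at 39.7, Rag1 at 36.3 and Slc6a19 at 22.7. The 3 genes Rag2, Ptcra and Rag1 lay close together, and the subunits of the recombinase kept no one order: the RPKM of Rag1 over that of Rag2 was 0.749 in WT group 2, 0.846 in WT group 3, 1.03 in KO group 2 and 0.765 in KO group 3. Dntt exceeded Rag1 by 18.9 to 26.2 times in RPKM in every library. The gap between the highest and lowest library was widest for Ptcra, at 2.75 times in scaled CPM, and narrowest for Cd1d1, at 1.22 times.

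**Figure D1:**
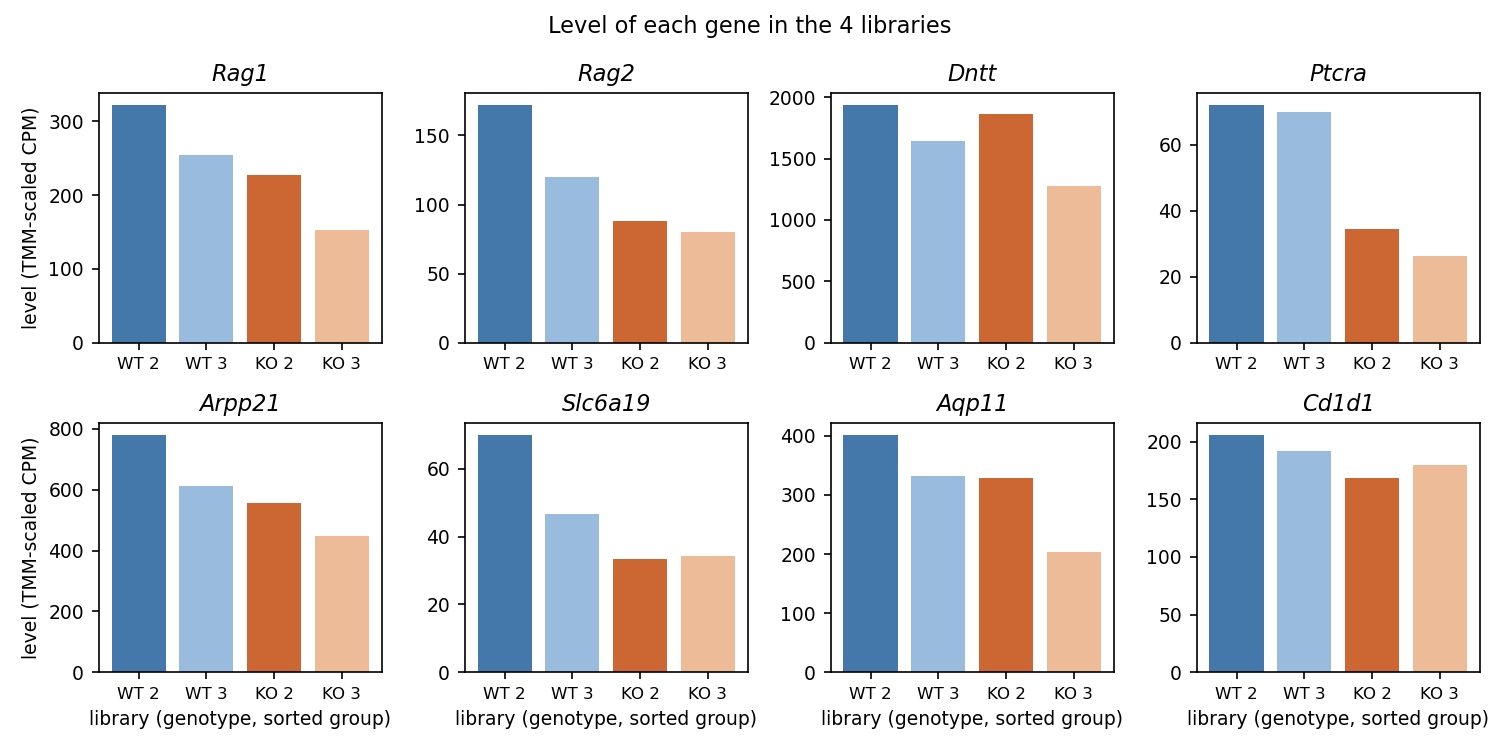
Level of each of the 8 genes in the 4 libraries, as TMM-scaled CPM on a linear axis from 0, with 1 bar per library (genotype and sorted group) and a separate scale in each panel; there are no error bars because each bar is 1 library. Both KO bars are below both WT bars for 7 of the 8 genes, and for Dntt the KO group 2 bar (1861) is above the WT group 3 bar (1644).

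The first comparison asked how the genes differed between genotypes. Of the 8 genes, 6 fell in the libraries labelled KO by the edgeR quasi-likelihood test over both sorted groups, where 1.87% of all 12490 genes were called lower and 2.95% higher. They were both recombinase genes, Ptcra, Arpp21, Slc6a19 and Aqp11. Dntt and Cd1d1 were not called. The fitted log2 difference was below 0 for all 8, with a median of -0.56, beside a median of 0.00 over all genes tested. In CPM scaled by TMM (trimmed mean of M values), both KO libraries were below both WT libraries for 7 of the 8 genes, as for 19.7% of all genes. In bulk RNA, fewer cells of a kind and less RNA per cell cannot be told apart.

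The test has 1 residual degree of freedom and takes each gene's error from the trend over all genes, so neither the spread between mice nor a gene's own difference between sorted groups enters it. With genotype alone in the edgeR model 0 of the 8 were called (5 at an unadjusted p under 0.05; adjusted p = 0.053 for Ptcra), and DESeq2 called 4. In that smaller model, leaving out 1 library leaves 1 genotype with 1 sorted group. Such an estimate mixes the genotype difference with the step between sorted groups, and does not isolate the weight of 1 library. The log2 difference over these fits ran from -1.44 to -1.04 for Ptcra, from -1.03 to -0.51 for Rag2 and from -0.63 to -0.29 for Arpp21.

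Rag1 (ENSMUSG00000061311, chr2:101638282-101649501, mm10) and Rag2 (ENSMUSG00000032864, chr2:101624718-101632529) encode the subunits of the recombinase and lie 5.75 kb apart on opposite strands. Rag1 stood at 322 CPM in WT group 2, 254 in WT group 3, 227 in KO group 2 and 153 in KO group 3. WT group 2 was the highest library and KO group 3 the lowest, and the genotypes did not overlap. The ratio of KO to WT was 0.706 (95% interval 0.668 to 0.747, counting error only, as in all such intervals here) in group 2 and 0.601 (0.561 to 0.643) in group 3. Over both groups Rag1 fell by 34.8% (log2 difference -0.62, SE from the fit 0.15, adjusted p = 0.00143, edgeR). With genotype alone in the model and KO group 3 left out, the log2 difference was -0.34.

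Rag2 stood at 172 CPM in WT group 2, 120 in WT group 3, 88.5 in KO group 2 and 79.8 in KO group 3. Its order of libraries was that of Rag1, with no overlap between the genotypes. In group 2 the KO to WT ratio was 0.515 (0.473 to 0.560) and in group 3 0.665 (0.604 to 0.732), and the fitted log2 difference was -0.77 ± 0.16 (adjusted p = 6.81e-05, edgeR). Without WT group 2, in the model of genotype alone, it was -0.51. Another gene, B230118H07Rik, overlaps both on the minus strand. The strand setting of the counting is not given in the sources used here, so reads from stretches that the genes share cannot be told apart. B230118H07Rik had 393 to 572 counts in a library and a genotype difference of 0.22 ± 0.18 on the log2 scale (adjusted p = 0.725, edgeR).

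Dntt (ENSMUSG00000025014, chr19:41029275-41059525, plus strand) encodes terminal transferase, which adds nucleotides without a template at the joints. It stood at 1933 CPM in WT group 2, 1644 in WT group 3, 1861 in KO group 2 and 1272 in KO group 3. Group 3 was below group 2 in both genotypes, and the genotypes overlapped. KO over WT gave a ratio of 0.963 (0.943 to 0.983) in group 2 and 0.774 (0.755 to 0.793) in group 3. The log2 fold in group 2 depended on the scaling, at -0.05 with TMM, -0.11 with DESeq2 size factors and -0.10 with library totals. The shared genotype difference was -0.21 ± 0.12 on the log2 scale (adjusted p = 0.499, edgeR), and 2 SE around it reach from -0.46 to 0.04.

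Ptcra (ENSMUSG00000036858, chr17:46755663-46763712, minus strand) encodes the α chain of the pre-T cell receptor, and its promoter stretch with a pair of CAGCTG motifs is printed above. It stood at 71.9 CPM in WT group 2, 69.9 in WT group 3, 34.5 in KO group 2 and 26.1 in KO group 3. The WT libraries were close to each other and far above both KO libraries. Its ratio of KO to WT was 0.480 (0.419 to 0.549) in group 2 and 0.374 (0.321 to 0.435) in group 3. Ptcra had the largest shared genotype difference of the 8 genes: it fell by 57.5% (log2 difference -1.24, SE 0.19, adjusted p = 8.03e-09, edgeR). Its nearest measured gene, Cnpy3, 3.45 kb away, had a genotype difference of 0.03 (adjusted p = 0.978, edgeR).

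Arpp21 (ENSMUSG00000032503, chr9:112065091-112235938, minus strand) encodes a cyclic AMP-regulated phosphoprotein of neurons and immature thymocytes. It stood at 780 CPM in WT group 2, 613 in WT group 3, 555 in KO group 2 and 449 in KO group 3, with both KO libraries under both WT libraries. The KO to WT ratios were almost equal, at 0.712 (0.687 to 0.737) in group 2 and 0.733 (0.704 to 0.764) in group 3. Arpp21 fell by 27.8% over both groups (log2 difference -0.47, SE 0.14, adjusted p = 0.0163, edgeR). With edgeR's own filter on low counts the adjusted p was 0.0611, and without WT group 2, in the model of genotype alone, the log2 difference was -0.29. The lincRNAs 2900079G21Rik and 2310075C17Rik overlap it on the other strand with 34 to 149 counts in a library.

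Slc6a19 (ENSMUSG00000021565, chr13:73679745-73704865, minus strand) encodes a sodium-coupled transporter of neutral amino acids. It stood at 69.9 CPM in WT group 2, 46.7 in WT group 3, 33.4 in KO group 2 and 34.2 in KO group 3. WT group 2 was well above the other libraries, and the KO libraries were level with each other and below both WT libraries. KO over WT was 0.478 (0.416 to 0.548) in group 2 and 0.733 (0.630 to 0.852) in group 3. Over both groups it fell by 41.0% (log2 difference -0.76, SE 0.19, adjusted p = 0.00287, edgeR). DESeq2 gave an adjusted p of 0.208 for it, and over all alternatives with 4 libraries the adjusted p ran from 0.00323 to 0.274. In the model of genotype alone without WT group 2, the log2 difference was -0.47. The antisense gene Slc6a19os, which overlaps it, had 10 to 26 counts.

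Aqp11 (ENSMUSG00000042797, chr7:97724006-97738289, minus strand) encodes an aquaporin of internal membranes. It stood at 401 CPM in WT group 2, 332 in WT group 3, 329 in KO group 2 and 203 in KO group 3. KO group 3 was far below the other libraries, while WT group 3 and KO group 2 nearly met. The KO to WT ratio was 0.819 (0.781 to 0.859) in group 2 and 0.612 (0.577 to 0.649) in group 3. Aqp11 fell by 29.1% over both groups (log2 difference -0.50, SE 0.14, adjusted p = 0.016, edgeR). The adjusted p was 0.119 with DESeq2, 0.0501 with no filter on low counts and 0.079 with edgeR's own filter, within a range of 0.00785 to 0.613 over the alternatives with 4 libraries. With genotype alone in the model, the log2 difference was -0.16 without KO group 3, -0.32 without WT group 2 and -0.85 without KO group 2.

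Cd1d1 (ENSMUSG00000028076, chr3:86995834-86999441, minus strand) encodes CD1d, the molecule through which double-positive thymocytes present lipids and select natural killer T cells. It stood at 206 CPM in WT group 2, 192 in WT group 3, 169 in KO group 2 and 179 in KO group 3. These levels lay closest together of the 8 genes, with both KO libraries slightly under both WT libraries. The KO to WT ratio was 0.820 (0.768 to 0.877) in group 2 and 0.934 in group 3, where the interval included 1. The shared difference was -0.19 ± 0.15 on the log2 scale (adjusted p = 0.691, edgeR), with 2 SE reaching from -0.49 to 0.11. Cd1d2, its near-identical copy 6.05 kb away, can take part of its reads, so both counts are uncertain. Cd1d1 exceeded Cd1d2 by 6.03 to 10.5 times in RPKM, and the genotype difference of Cd1d2 was -0.47 on the log2 scale (adjusted p = 0.309, edgeR).

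**Figure D2:**
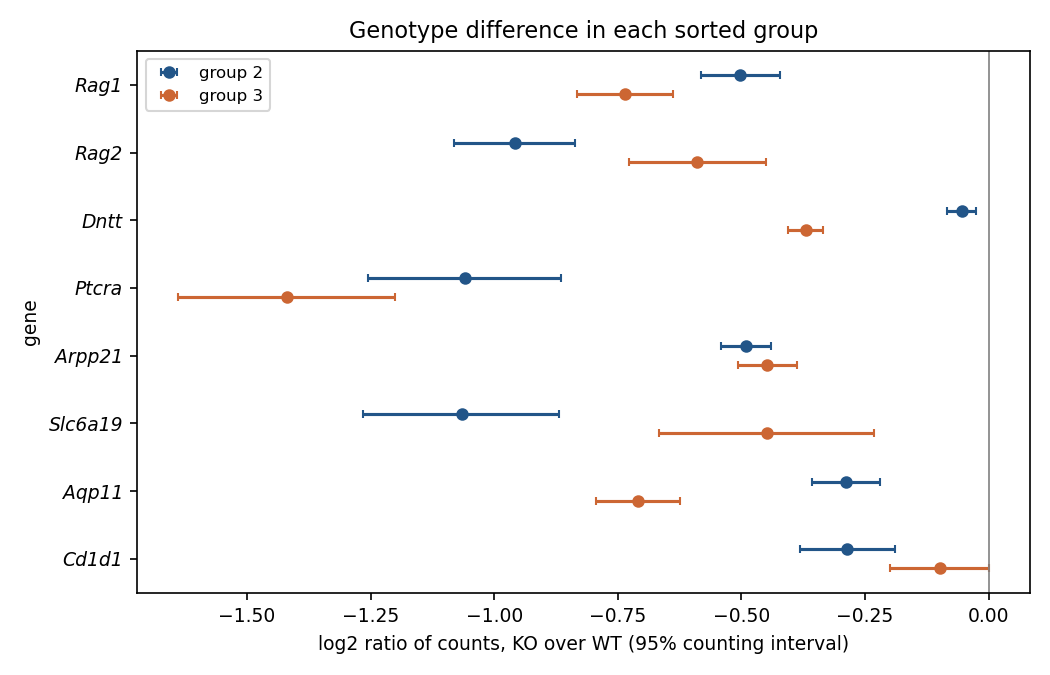
Log2 ratio of KO to WT counts for each gene within group 2 and within group 3, scaled by TMM; points are 1 library over 1 library, bars are exact 95% intervals for counting error, and the line at 0 is no difference. All 16 points are below 0, and the bar of Cd1d1 in group 3 reaches 0.

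Within each sorted group 1 library was compared with 1 library, with no replicate check and no p-value. The KO to WT interval was below 1 for 8 of the 8 genes in group 2, as for 25.8% of all genes, and for 7 of 8 in group 3, as for 23.7% of all genes. A ratio of at least 2-fold lower was seen in group 2 for 2 genes, Ptcra and Slc6a19 (2.44% of all genes), and in group 3 for Ptcra alone (5.6% of all genes). The median log2 fold of the 8 was -0.50 in group 2 and -0.52 in group 3, while that of all genes was 0.00 and -0.01.

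The genotype ratios were not of one size in the sorted groups. The log2 fold in group 3 minus that in group 2 was -0.42 (-0.53 to -0.31) for Aqp11, -0.35 (-0.64 to -0.07) for Ptcra, -0.32 (-0.36 to -0.27) for Dntt and -0.23 (-0.36 to -0.11) for Rag1. It was 0.61 (0.32 to 0.90) for Slc6a19, 0.37 (0.18 to 0.55) for Rag2, 0.19 (0.05 to 0.32) for Cd1d1 and 0.04 (-0.03 to 0.12) for Arpp21. The values thus lay on both sides of 0, and the recombinase genes stood on opposite sides. The intervals are approximate and cover counting error alone, and with 1 library per group these differences were not tested.

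The second comparison followed the genes from group 2 to group 3. It uses the same 4 libraries as the first. Of the 8 genes, 2 fell by the edgeR test over both genotypes, Dntt and Aqp11, where 1.14% of all genes were called lower and 2.21% higher. Dntt fell by 0.39 ± 0.12 on the log2 scale (adjusted p = 0.048) and Aqp11 by 0.48 ± 0.14 (adjusted p = 0.027), both by edgeR. Rag1 missed the threshold at -0.46 ± 0.15 (adjusted p = 0.0536, edgeR). The fitted values were -0.34 for Rag2, -0.33 for Arpp21, -0.28 for Slc6a19, -0.21 for Ptcra and -0.01 for Cd1d1, none called. The median of the 8 was -0.33, beside -0.01 over all genes, and both group 3 libraries were below both group 2 libraries for 1 of the 8, Dntt, as for 16.2% of all genes.

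These calls turned on the settings. DESeq2 called 0 of the 8 (4 at an unadjusted p under 0.05; adjusted p = 0.203 for Dntt and 0.158 for Aqp11). Robust shrinkage and limma-voom each called 2 genes, Aqp11 and Rag1 (adjusted p = 0.0288 and 0.0334 for Rag1), with Dntt at 0.131 and 0.0582. With sorted group alone in the edgeR model, 0 of the 8 were called, also without each library in turn. In that model the log2 step of Dntt was -0.21 without KO group 3, and that of Aqp11 was -0.14 without KO group 3, -0.30 without WT group 2 and -0.84 without WT group 3. Leaving out a library there leaves 1 sorted group with 1 genotype, so the estimate mixes the step with the genotype difference. At an unadjusted p under 0.05 there were 0 genes without WT group 2, 6 without WT group 3, 4 without KO group 2 and 0 without KO group 3.

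**Figure D3:**
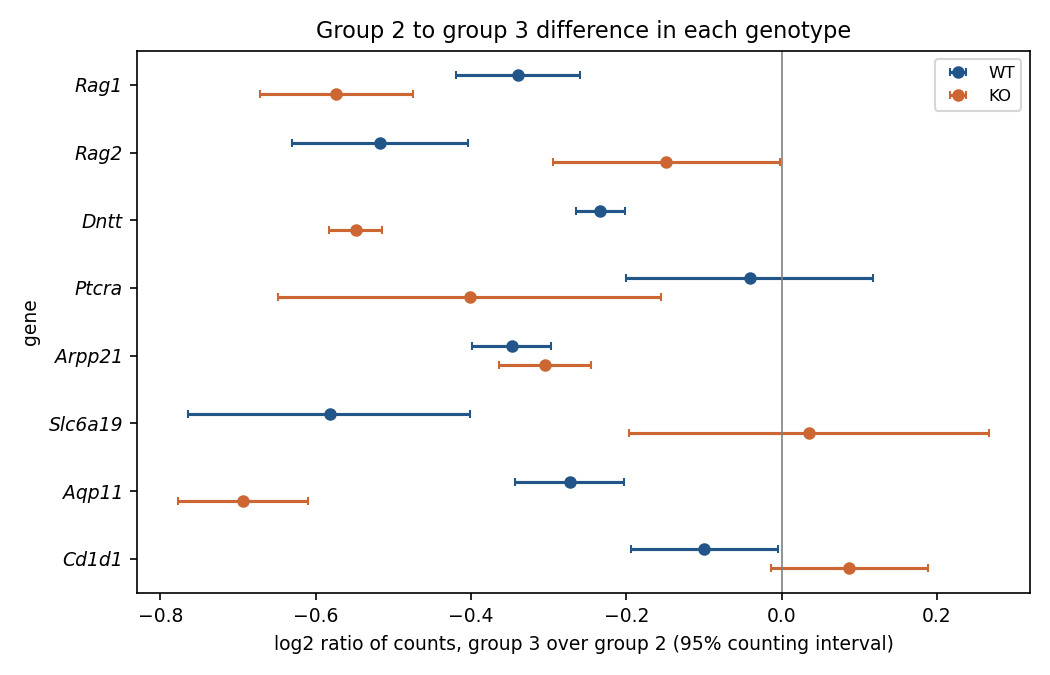
Log2 ratio of group 3 to group 2 counts for each gene within WT and within KO, scaled by TMM; points are 1 library over 1 library, bars are exact 95% intervals for counting error, and the line at 0 is no difference. All 8 WT points are below 0, whereas the KO points of Slc6a19 and Cd1d1 are above it with bars that include it.

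In WT, the group 3 to group 2 ratio was 0.790 for Rag1, 0.699 for Rag2, 0.851 for Dntt, 0.786 for Arpp21, 0.668 for Slc6a19 and 0.828 for Aqp11. It was nearer 1 for Ptcra, at 0.972 (0.870 to 1.08), and for Cd1d1, at 0.933 (0.874 to 0.996). The interval was below 1 for 7 of 8 genes, as for 24.1% of all genes, and 0 genes were lower by 2-fold (1.86% of all genes). Slc6a19 and Rag2 thus had the lowest ratios in WT.

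In KO, the ratio was 0.618 for Aqp11, 0.672 for Rag1, 0.684 for Dntt, 0.757 for Ptcra and 0.810 for Arpp21. It was 0.902 (0.815 to 0.998) for Rag2, 1.02 (0.873 to 1.20) for Slc6a19 and 1.06 (0.990 to 1.14) for Cd1d1. The interval was below 1 for 6 of 8 genes, as for 24.2% of all genes, and 0 were lower by 2-fold (5.99% of all genes). Rag2 and Slc6a19, lowest of the 8 in WT, were thus among the 3 highest ratios in KO. The median log2 fold of the 8 was -0.31 in WT and -0.35 in KO.

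Some other genes of the pathway also fell between the genotypes. Of 14 genes of end joining and of the proteins that assist RAG cutting, 3 fell and 0 rose, with a median of -0.20 and 13 of 14 below 0, where 1.87% of all genes were called lower and 49.8% were below 0. The 3 were Hmgb1 (-0.39, adjusted p = 0.0259, edgeR) and Hmgb2 (-0.52, adjusted p = 0.00138, edgeR), DNA-bending proteins that assist RAG cutting, and Xrcc6 (adjusted p = 0.0267, edgeR), which encodes the Ku70 subunit that holds broken ends. Hmgb1 and Hmgb2 are also general chromatin proteins. From group 2 to group 3, 0 of the 14 were called by edgeR.

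Of 18 regulators of the Rag genes and Ptcra, 1 fell between genotypes and 0 rose, with a median of -0.00. It was Satb1, a chromatin organiser of thymocytes that also stands in the next list (-0.36 ± 0.11, adjusted p = 0.0315, edgeR). The E protein genes Tcf3 and Tcf12, at 0.11 and -0.10, were not called. From group 2 to group 3, 2 rose and 2 fell. Id2, an inhibitor of E proteins, rose by 0.81 (adjusted p = 9.53e-06, edgeR) and Foxo1, a regulator of Rag genes and of Ccr7, by 0.60 (adjusted p = 0.00686, edgeR). Myb fell by 0.67 (adjusted p = 0.000319, edgeR) and Ikzf1 by 0.56 (adjusted p = 0.00606, edgeR).

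Among 17 other genes of immature double-positive cells, 2 fell between the genotypes, Satb1 and Pdlim4 (-1.39 ± 0.43, adjusted p = 0.0332, edgeR), and 0 rose. Their median was -0.23, and 15 of 17 were below 0, again beside 1.87% of all genes called lower and 49.8% below 0. From group 2 to group 3, 3 of the 17 fell, with a median of -0.22: Cd24a (-0.62, adjusted p = 0.000603, edgeR), Bcl6 (-0.78, adjusted p = 0.00316, edgeR) and Cd8b1 (-0.41, adjusted p = 0.0152, edgeR).

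Some genes of maturing thymocytes differed between the genotypes in the other direction. Of 14, 4 rose in the libraries labelled KO and 0 fell, with a median of 0.20; 5 of the 14 were below 0, the lowest at -0.47. Of all genes 2.95% were called higher and 49.8% were below 0. The called genes included Slfn1 (adjusted p = 0.00322, edgeR), Ms4a6b (adjusted p = 0.0042, edgeR) and Gimap6 (0.42, adjusted p = 0.0315, edgeR). From group 2 to group 3, 9 rose and 1, Cd5, fell, with a median of 0.71; Ccr7 rose by 1.75 (adjusted p = 1.58e-30, edgeR). Ccr7 had a genotype difference of -0.13 (adjusted p = 0.82, edgeR). Whether the stage of the sorted cells plays a part in the lower levels of the 8 genes was not tested.

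Markers of other cells were at low levels beside the T cell markers. B cell precursors also use Rag1, Rag2 and Dntt. Their markers summed to 63.9 to 71.0 CPM in WT and 69.3 to 88.8 in KO, with Pax5 at 1 to 4 counts. Of the 9, 6 were measured and 0 were called by edgeR. Most of each sum was Cd79b, at 50.6 CPM in WT group 2, 42.4 in WT group 3, 52.0 in KO group 2 and 39.6 in KO group 3. The median genotype difference of the 6 measured markers was 0.49, and 1 of them, Cd79b, was below 0. Those of double-negative thymocytes, which express Ptcra, summed to 37.0 to 41.3 CPM in WT and 53.1 to 53.5 in KO; 3 of 5 were measured, and Cd44 rose (0.81, adjusted p = 0.0102, edgeR) while Il2ra was at 0.01. Macrophage and dendritic cell markers summed to 63.0 to 76.3 CPM in WT and 102 to 113 in KO, with 10 of 10 measured and C1qb rising (1.12, adjusted p = 0.0252, edgeR). Thymic epithelium gave 26.4 to 32.5 CPM, and of its 5 markers only 1, Epcam, was measured. Epcam made up nearly all of each sum, at 31.3, 26.9, 25.0 and 29.9 CPM in WT group 2, WT group 3, KO group 2 and KO group 3. Foxn1 was at 6, 1, 0 and 0 counts in the same order. Erythroid genes gave 334 to 364 CPM in WT and 367 to 504 in KO. The sums overlapped between the genotypes for B cell precursors, where Cd79b led, and for epithelium, where Epcam led. They were higher in both KO libraries for the other 3 kinds. The part of these other cells in the results was not tested.

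The last lists held the lipid-loading partners of CD1d and the relatives of the other genes. Of 7 genes that load or accompany CD1d, B2m, its light chain, rose between the genotypes (0.47, adjusted p = 0.00658, edgeR) and 0 fell. From group 2 to group 3, B2m and the protease gene Ctss rose, and Ctsl, the protease of lysosomes, fell by 0.50 (adjusted p = 0.0216, edgeR). Of 13 partners and paralogues of Slc6a19, Aqp11, Arpp21 and the Rag genes, 8 were measured, 0 were called between genotypes and 1, Aqp9, rose from group 2 to group 3 (2.04, adjusted p = 0.00273, edgeR).

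**Figure D4:**
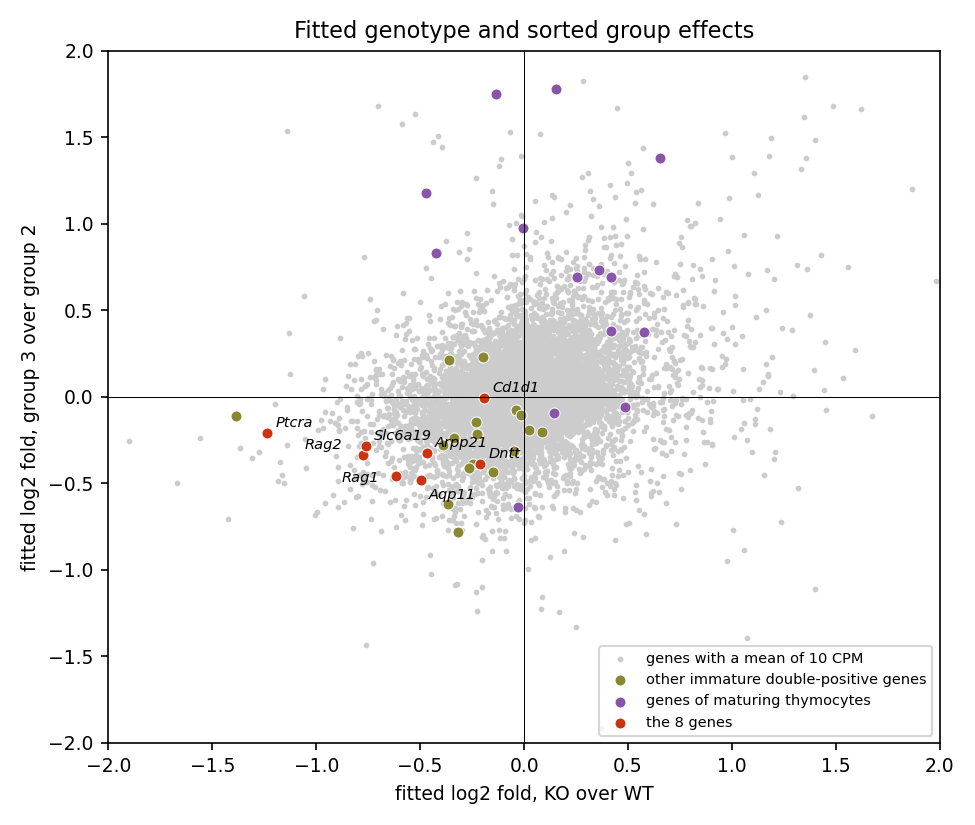
Fitted log2 fold of KO over WT (horizontal) against that of group 3 over group 2 (vertical); grey points are genes with a mean of at least 10 CPM, of which 21 of 8590 lie outside the axes at 2, and coloured points are the 8 genes, the other genes of immature double-positive cells and the genes of maturing thymocytes. The 8 genes all lie left of 0 and at or below 0, with Ptcra farthest left of them at -1.24 and Cd1d1 nearest the centre.

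Centred on its own mean over the 4 libraries, the average log2 profile of the 8 genes was 0.45 in WT group 2, 0.14 in WT group 3, -0.14 in KO group 2 and -0.45 in KO group 3. Arpp21 lay nearest to it, at a Euclidean distance of 0.127, followed by Rag1 at 0.184 and Rag2 at 0.262. Cd1d1, with a flatter profile, and Ptcra, with a steeper one, lay farthest, at 0.512 and 0.662. Among 8588 other named genes at 10 CPM, the nearest to the average profile were Jmjd8 at 0.0314, Hacd1 at 0.0499, Agfg2 at 0.0614, Aurkb at 0.0684, Kdsr at 0.0771 and Usp32 at 0.0859. Agfg2 stood at 170 CPM in WT group 2, 138 in WT group 3, 119 in KO group 2 and 92.2 in KO group 3. With 4 libraries a likeness of this kind is a description of the profile only.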

How the data were processed

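The authors deposited a count table by Ensembl gene and an RPKM table for each library. The submitters' processing notes name TopHat2 2.0.12 and mm10. How reads were assigned to genes (program, annotation, strand) is not given in the sources used here. Deposited RPKM and counts together gave whole gene lengths within 0.01 bp for 100% of nonzero values, and RPKM served only to compare levels between genes. Symbols and coordinates came from GENCODE M21 (34490 of 35275 IDs matched).

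Genes at 2 CPM in at least 1 library were kept, scaled by TMM and tested with edgeR 4.0.16 (R 4.3.3): quasi-likelihood F test, sorted group plus genotype, Benjamini-Hochberg adjustment over 12490 genes, threshold 0.05. The spread was shrunk fully to the trend (common dispersion 0.0288). A fold of 1 library over another used scaled CPM plus 0.5; its interval is the exact (Clopper-Pearson) 95% interval of the count ratio. PCR copies are not independent molecules, so intervals cover counting error only. Nothing in the labels says which mice a library came from, so p-values do not measure the spread between mice. In simulated counts for the genotype test (12490 genes), 67.5% of genes changed 2-fold and 2.5% of those changed 1.5-fold were called. These shares were not split by level. In the real counts the SE of the genotype difference was 0.12 for Dntt, 0.19 for Slc6a19 and 0.43 for Pdlim4. Arpp21 was called at a log2 difference of -0.47. The shares are therefore not the power for single genes, such as the well-expressed ones described here.

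The 8 genes and all lists were chosen with earlier results of these data known. Named genes were the 8, Uba3, Ccr7, Cd1d2, up to 4 called genes per list by smallest adjusted p, neighbours of the 8, and the 6 genes nearest in profile; the text prints a part, and some items are not reported here. Tcf3, Tcf12, Il2ra, Pax5, Foxn1, Cd79b and Epcam were singled out after their values were seen. Alternatives were DESeq2 1.42.0, limma-voom (limma 3.58.1), DESeq2 size factors, other filters, robust shrinkage, the tested factor alone, and each library left out.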

Additional observations from a re-analysis of the deposited data

Results flagged for a closer look

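From group 2 to group 3, Slc6a19 had a log2 fold of -0.58 in WT and 0.03 in KO, opposite directions that differ by 0.611, and the KO interval includes no difference. Cd1d1 had -0.10 in WT and 0.09 in KO, a difference of 0.186, and its KO interval also includes no difference. With 1 library per group neither difference was tested.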

How the results depend on the processing

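No paired analysis was possible because each group held 1 library and the labels carry no replicate numbers. The genotype test called 6 of the 8 genes lower, and 368 genes higher and 234 lower over all genes. These counts were 244 and 125 with no filter, 195 and 104 under filterByExpr, 125 and 54 with DESeq2, and 17 and 6 with genotype alone, where 0 of the 8 were called. Leaving out each library in that model gave 0 to 2 of the 8, with 25 to 80 genes higher and 11 to 42 lower; the lone sample of an arm was assumed to vary like the others. The genotype difference then ran from -0.49 to 0.057 for Dntt, from -0.91 to -0.34 for Rag1, from -1.05 to -0.47 for Slc6a19 and from -0.85 to -0.16 for Aqp11. These fits leave 1 genotype with 1 sorted group, so the step between sorted groups enters the ranges. The sorted group test called 2 of the 8 lower, and 276 genes higher and 143 lower. With DESeq2 size factors 1 of the 8 was called; 0 were with no filter (83 genes lower), under filterByExpr (169 higher, 57 lower), with DESeq2 (100 and 39) or with sorted group alone (9 and 5). Leaving out each library gave 0 of the 8, with 2 to 36 genes higher and 5 to 10 lower. Over these fits the step ran from -0.57 to -0.21 for Dntt, from -0.84 to -0.14 for Aqp11, from -0.78 to 0.17 for Rag2, from -1.02 to 0.47 for Ptcra, from -0.79 to 0.28 for Slc6a19 and from -0.15 to 0.14 for Cd1d1. Here 1 sorted group is left with 1 genotype, so the genotype difference enters the ranges. The step of Cd1d1 was 0.0034 with DESeq2 size factors and 0.010 with no filter. A 1.5-fold rule put 4 of the 8 past it between genotypes in group 3 and 1 of the 8 in the KO step. With DESeq2 size factors, chosen after seeing the data, the genotype fold in group 3 minus group 2 was -0.21 for Dntt and 0.15 for Arpp21. The looser and stricter filters change how many genes are tested, and for all settings the cause of the changed calls was not tested. The 8 genes had 249 counts or more in every library, which sets the counting intervals given with the ratios.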
